A study of Mus musculus with 14 samples.

Results

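The genes for voltage-gated sodium channels, voltage-gated calcium channels and HCN channels were described in the mouse hippocampus across 3 subregions and 2 ways of preparing the tissue. The members are all row names of the deposited gene table of the form Scn followed by a number and a or b, Cacna1 followed by a letter, Cacna2d1 to Cacna2d4, Cacnb1 to Cacnb4, and Hcn followed by a number. This naming rule, which uses no measured value, gave 35 of 22485 genes. The 32 described, over which all counts below run, are 8 sodium channel alpha genes, 3 sodium channel beta genes, 10 calcium channel alpha1 genes, 4 alpha2delta genes, 4 calcium channel beta genes and 3 HCN genes. It passed over the brain sodium channel gene listed under its older symbol Scn2a1, whose values are given once as those of a gene outside the rule.

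The study asked how enzymatic dissociation of tissue changes its transcriptome, by RNA-seq of bulk tissue from a C57BL/6 mouse. Dissociated tissue was treated with pronase, a protease mixture, at 1 mg/ml for 75 min at room temperature, and was then vortexed, spun and triturated in fluid that held 1% fetal bovine serum. Control tissue was homogenised directly for RNA isolation. CA1 had 3 dissociated and 3 control libraries, while CA3 and the dentate gyrus (DG) each had 2 dissociated and 2 control libraries, and all 14 came from 1 mouse, so every p-value below measures only the spread between tissue samples of that animal.

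Voltage-gated sodium channels open when the membrane depolarises and carry the rising phase of the action potential. Each has a pore-forming alpha subunit and small beta subunits that alter gating and bind adhesion proteins. Voltage-gated calcium channels have a pore-forming alpha1 subunit, and in the high-voltage-activated kinds also an extracellular alpha2delta and a cytoplasmic beta subunit; they trigger transmitter release and carry calcium into dendrites. HCN channels open on hyperpolarisation instead and pass a mixed cation current that is well known from the distal dendrites of CA1 pyramidal cells.

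The members were related in sequence to very different degrees. Stretches of 63 bases from the coding strands of GENCODE M21 transcripts (GRCm38) are shown for 5 calcium channel genes, because the T-type genes Cacna1h and Cacna1i were both called between CA1 and DG, with opposite signs. The stretches lie in the pore loop of the third repeat. Capitals mark 15 bases whose middle codon gives the acidic residue of the filter, aspartate in these T-type genes and glutamate in Cacna1c, an L-type gene, and Cacna1e, the R-type gene. Cacna1g lies on chromosome 11, Cacna1h on chromosome 17, Cacna1c on chromosome 6 and Cacna1e on chromosome 1, all on the minus strand, and Cacna1i on the plus strand of chromosome 15:
Cacna1g: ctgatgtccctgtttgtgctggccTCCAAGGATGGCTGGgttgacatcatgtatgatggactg
Cacna1h: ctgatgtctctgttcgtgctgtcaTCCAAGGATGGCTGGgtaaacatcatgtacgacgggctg
Cacna1i: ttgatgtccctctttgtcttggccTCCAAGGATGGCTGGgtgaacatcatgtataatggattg
Cacna1c: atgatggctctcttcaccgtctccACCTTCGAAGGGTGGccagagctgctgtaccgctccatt
Cacna1e: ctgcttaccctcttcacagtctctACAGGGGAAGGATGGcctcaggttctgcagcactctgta
Cacna1h and Cacna1i were identical at 49 of these 63 bases, and Cacna1h and Cacna1c at 34 of 63 bases.

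Such likeness can blur the assignment of reads to genes. Of all distinct 31-base stretches in the M21 transcripts of Cacna1h, 0.755% also occurred in another gene, and for Cacna1i and Cacna1c the share was 0.797% and 0.145%. The highest shares were 9.57% for Scn3a, 7.29% for Scn1a and 6.01% for Scn9a.

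The deposited values are estimated counts and TPM, the share of transcripts after division by length. The dissociated libraries held 65887 to 4782767 estimated counts and the control libraries 1285654 to 6646655. The markers of the labelled subregion were low in 4 libraries. Levels of a gene between libraries are given as CPM, its counts scaled by library size. The summed CA1 markers were at 59.4 CPM in the library labelled dissociated CA1 replicate 3, which is 2.19% of the highest CA1 library. The summed markers of the label were at 22.8% of the highest CA3 library in dissociated CA3 replicate 1, 17.8% in control CA3 replicate 1 and 28.5% of the highest DG library in control DG replicate 2. The CA1 markers summed to 2091 CPM in control and 1686 CPM in dissociated CA3 replicate 1. The CA1 libraries other than dissociated replicate 3 had 1511 to 2713 CPM. Control CA3 replicate 4, not among the 4, had 803 CPM of CA1 markers. The CA3 markers were at 723 CPM in dissociated CA1 replicate 3 and 691 CPM in control DG replicate 2. CA3 libraries had 192 to 1080 CPM of them. The region names below are those of the labels. The counts of called members, and the fold changes of the members and partner genes called between regions, are therefore also given without these 4 libraries, a choice made after the markers were seen. The limit was 1/3 of the highest library with that label. The lowest library kept was dissociated DG replicate 3, at 37.5% of the highest DG library and with 65887 counts. The counts of members without overlap use all 14 libraries.

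The 32 members took 0.191% to 0.487% of the counts in the dissociated libraries, against 0.361% to 0.599% in the control libraries. Their levels, compared per transcript length, spanned several orders of magnitude. Among the 32, the sodium channel beta subunit gene Scn3b had the highest mean over the 14 libraries, 191 TPM. Next were the calcium channel beta gene Cacnb3 at 175 TPM, Hcn2 at 144 TPM, the calcium channel beta gene Cacnb1 at 124 TPM, the sodium channel beta gene Scn2b at 120 TPM and Scn8a, the main sodium channel alpha gene of mature axon initial segments, at 117 TPM.

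**Figure D1:**
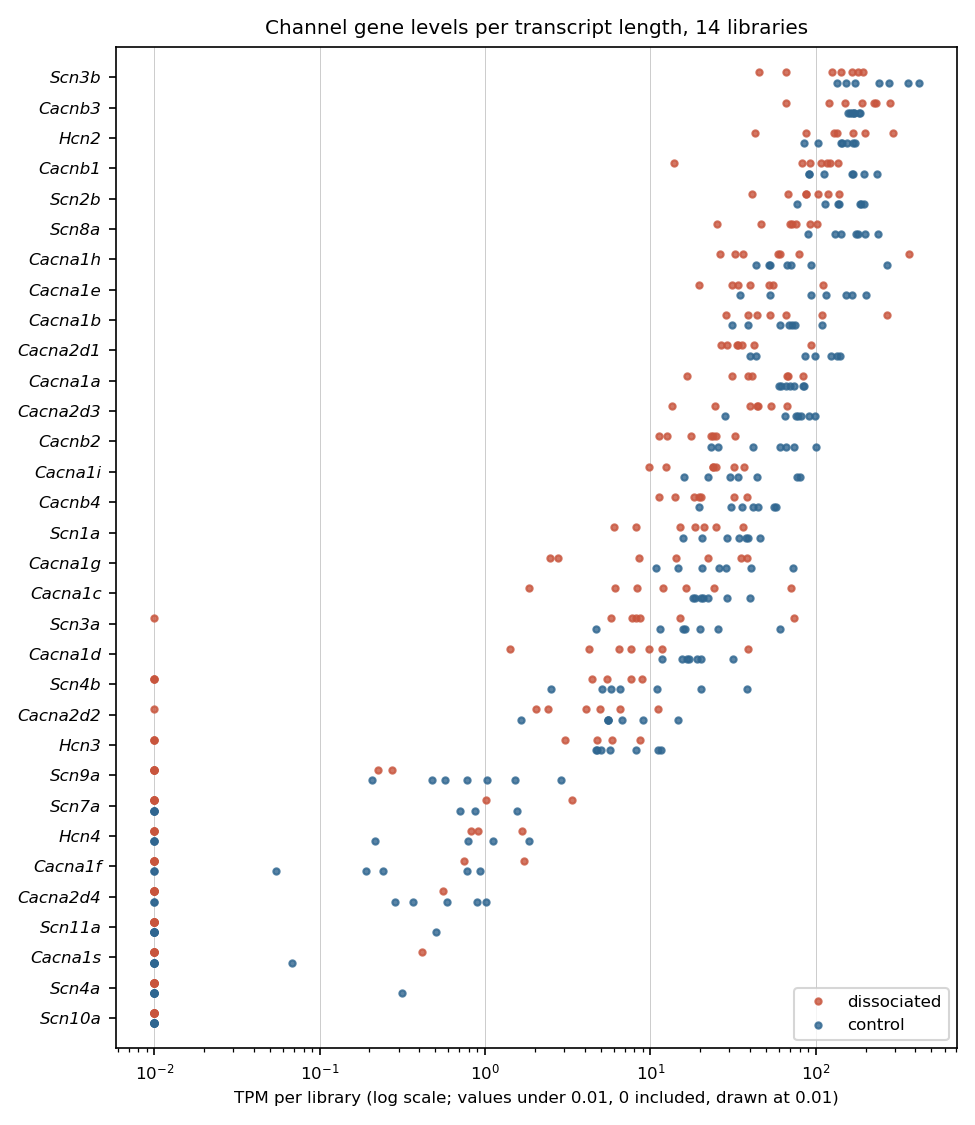
TPM of each of the 32 members in each of the 14 libraries, on a log axis, with the 7 dissociated libraries above the 7 control libraries for each gene and genes ordered by their mean. TPM is not scaled between libraries by composition, so the position of the dissociated points left of the control points is not the tested difference; Scn3b has the highest mean, 191 TPM, and Scn10a was at 0 in every library.

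Among the pore-forming calcium channel genes the means were 93.9 TPM for Cacna1h, 82.9 TPM for Cacna1e, 76.2 TPM for Cacna1b of the N-type channel and 60.5 TPM for Cacna1a of the P/Q-type channel. Transcripts under 1000 bases supplied 59.7% of the Cacna1b value and 35.1% of the Cacna1h value, and without them Cacna1b stood at 30.7 TPM and Cacna1h at 60.9 TPM. Cacna1d, an L-type gene of brain, averaged 15.1 TPM. Among the HCN genes Hcn2 averaged 144 TPM and Hcn3 5.24 TPM. Scn2a1, outside the rule, averaged 81.7 TPM.

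A group of 9 members stayed under a mean of 1 TPM. They were the sodium channel genes known from peripheral neurons and muscle (Scn4a, Scn9a, Scn10a and Scn11a), Scn7a, Hcn4, and the calcium channel genes known from skeletal muscle and retina (Cacna1s, Cacna1f and Cacna2d4). Scn10a had no count in any library, which with 32509967 counts in all allows a level of up to 0.0923 CPM for counting error only. A filter on level in enough libraries left 25 members to test among 13063 genes. Its minimum of 10 counts holds at the median library size, so fewer counts sufficed in shallower libraries. The 7 that were not tested were Cacna1f, Cacna1s, Cacna2d4, Hcn4, Scn4a, Scn10a and Scn11a.

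Dissociated tissue was compared with control tissue over all regions, with region in the model. None of the 25 tested members passed an adjusted p of 0.05 in edgeR's quasi-likelihood test, where 0.773% of all genes did. At an unadjusted p of 0.05, 8 members passed, all lower in dissociated tissue, which is 32% of the members against 12.4% of all genes. The 8 include Scn9a, at most 1.64 CPM in dissociated and 10.3 CPM in control libraries. It passed the filter through control libraries alone, so its direction here and in the counts below 0 was largely set by the filter. DESeq2 called 1 member, Cacnb2, with 3.67% of all genes called. The fitted change was below 0 in 22 of 25 members and its median was -0.45 on the log2 scale, beside -0.11 for all genes tested, of which 58.1% were below 0. With another scaling between libraries the count below 0 was 21 of 25, and the median of the members was -0.35 beside -0.01 for all genes. Without the 3 dissociated libraries under 500000 counts the median of the members was -0.21 beside -0.05 for all genes, and in limma on log2(TPM + 1) it was -0.86 beside -0.64. Without the 4 libraries 0 members were called in edgeR, beside 0.805% of all genes.

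**Figure D2:**
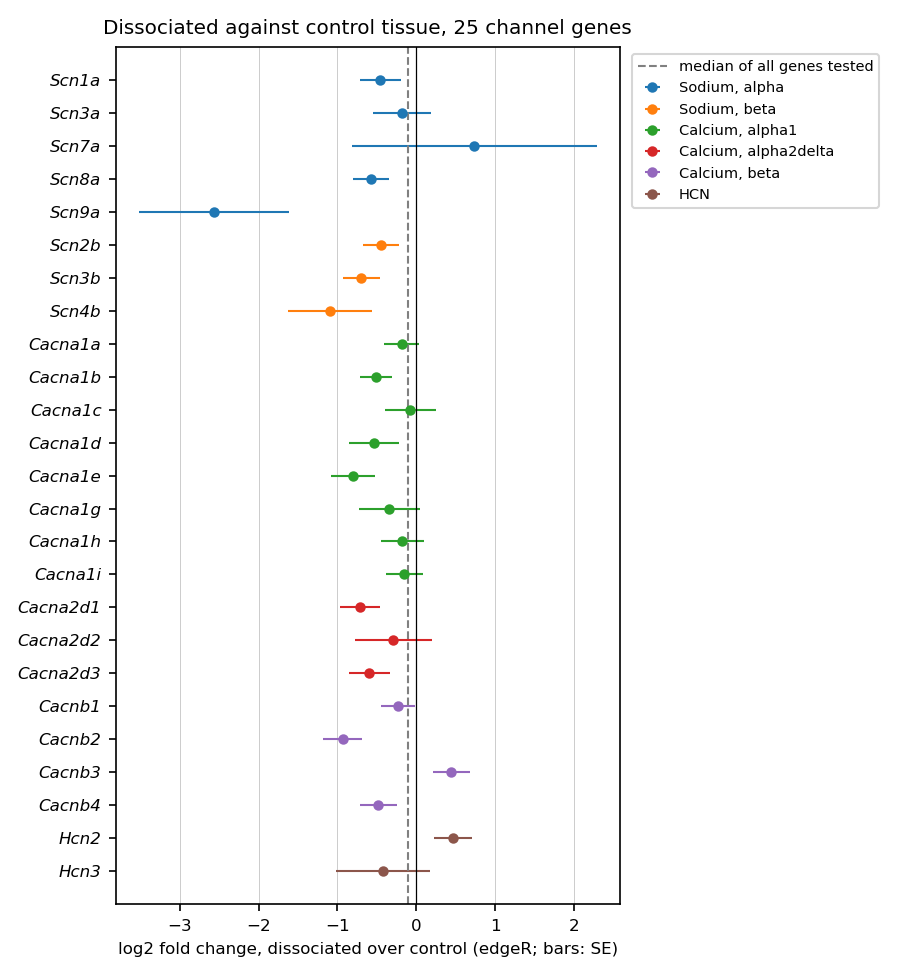
Log2 fold change of dissociated over control tissue with its standard error for the 25 members tested, coloured by subfamily, from edgeR on 7 dissociated and 7 control libraries; the dashed line is the median of all genes tested. No member passed an adjusted p of 0.05, and 22 of 25 points lie below 0.

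Cacnb2, on chromosome 2 (chr2:14603088-14987908, plus strand, GRCm38), encodes a beta subunit that brings calcium channels to the membrane, and had the smallest p of all members. It had 57.3, 41.0 and 19.8 CPM in dissociated CA1 libraries, 55.1 and 57.6 in dissociated CA3 libraries, and 15.6 and 26.5 in dissociated DG libraries, against 111, 110 and 89.5 CPM in control CA1, 85.5 and 82.9 in control CA3, and 40.3 and 43.1 in control DG libraries. Within each region every dissociated library lay below every control library. In dissociated DG replicate 3, at 15.6 CPM, 3 counts correspond to 45.5 CPM, above both control DG values. The separation in DG is therefore not firm. Its log2 fold change was -0.94 ± 0.25 (SE), with an adjusted p of 0.092 in edgeR, so the call was missed, while DESeq2 gave -0.82 with an adjusted p of 0.0092. Only 1 other tested member, Scn9a, was separated in this way in all 3 regions, and 1.34% of all genes were; 0 members lay above control in this way, beside 0.597% of all genes.

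Scn9a, a sodium channel alpha gene best known from pain-sensing neurons, was at the limit of detection. It had 5 and 4 estimated counts in dissociated CA1 replicate 1 and dissociated CA3 replicate 1 and 0 in the other 5 dissociated libraries, against 4 to 31 counts in the 7 control libraries. The 0 counts of the shallowest dissociated libraries allow levels above every control value, so no fold is given.

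Cacna1e had the smallest p of the pore-forming calcium channel genes. Its R-type channel carries calcium into dendritic spines. It had 527, 335 and 446 CPM in dissociated CA1 libraries, 287 and 322 in dissociated CA3, and 172 and 775 in dissociated DG libraries, against 1367, 1049 and 1041 CPM in control CA1, 575 and 269 in control CA3, and 397 and 835 in control DG libraries. The groups did not overlap in CA1 and overlapped in CA3 and DG. Over all regions the log2 fold change was -0.81 ± 0.28 (SE) with an adjusted p of 0.22. Within CA1 alone it was -1.39 ± 0.41 with an adjusted p of 0.21.

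Cacna2d1 encodes the alpha2delta subunit that binds gabapentin, and it too was separated in CA1. It had 160, 171 and 116 CPM in dissociated CA1, 152 and 142 in dissociated CA3, and 93.7 and 271 in dissociated DG libraries, against 388, 375 and 360 CPM in control CA1, 257 and 145 in control CA3, and 146 and 276 in control DG libraries. The dissociated CA1 libraries all lay below 200 CPM and the control CA1 libraries all above 300 CPM. Its fitted log2 difference was -0.71 ± 0.26 (SE, adjusted p = 0.24) over all regions and -1.34 ± 0.36 (SE, adjusted p = 0.18) within CA1. The other 2 tested alpha2delta genes also had values below 0, Cacna2d3 at -0.59 and Cacna2d2 at -0.29.

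Scn3b encodes a sodium channel beta subunit and had the smallest p of the sodium channel genes. It had 390, 205 and 271 CPM in dissociated CA1, 332 and 165 in dissociated CA3, and 109 and 225 in dissociated DG libraries, against 554, 428 and 674 CPM in control CA1, 469 and 225 in control CA3, and 265 and 288 in control DG libraries. Dissociated and control libraries were apart in CA1 and DG and overlapped in CA3. Its fitted log2 fold change was -0.70 ± 0.23 (SE) with an adjusted p of 0.20. For Scn8a it was -0.58 ± 0.23 (adjusted p = 0.30) and for Scn1a, the alpha gene of fast-spiking interneurons, -0.46 ± 0.26 (adjusted p = 0.48). Scn2a1, outside the rule, had -0.58 ± 0.21 (adjusted p = 0.25).

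Hcn2 had the smaller p of the 2 HCN genes described that were tested. It had 414, 150 and 214 CPM in dissociated CA1 libraries, 317 and 566 in dissociated CA3, and 93.7 and 190 in dissociated DG libraries, against 241, 202 and 224 CPM in control CA1, 187 and 246 in control CA3, and 161 and 126 in control DG libraries. Both dissociated CA3 libraries lay above both control CA3 libraries, and the groups overlapped in CA1 and DG. The log2 fold change was 0.46 ± 0.24 (SE, adjusted p = 0.44) over all regions and 1.03 ± 0.43 (SE, adjusted p = 1) within CA3. Values above 0 over all regions were also fitted for Cacnb3, 0.44 ± 0.23 (adjusted p = 0.45), and for the scarce Scn7a.

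By subfamily, the count below 0 for dissociated over control tissue was 8 of 8 calcium channel alpha1 genes (median -0.26), 3 of 3 alpha2delta genes (median -0.59), 3 of 4 calcium channel beta genes (median -0.36), 1 of 2 HCN genes and 7 of 8 sodium channel genes (median -0.52), none of them called. The 7 include Scn9a, which passed the filter through control libraries alone. Within single regions no member was called in edgeR, beside 0.191%, 0.0% and 0.161% of all genes in CA1, CA3 and DG. At an unadjusted p under 0.05, 7 of 25 members passed in CA1 beside 11.2% of all genes, 1 in CA3 beside 4.0% and 4 in DG beside 14.1%, so that the shares in CA3 and DG were near those of all genes. Of the 4 in DG, Hcn3 and Scn4b were at 0 in both dissociated DG libraries, where 3 counts correspond to 45.5 and 5.01 CPM. Their means in control DG libraries were 18.7 and 11.0 CPM. DESeq2 called 1 member in CA1, Cacna2d1 (1.58% of all genes), 0 in CA3 (0.0%) and 0 in DG (0.797%). With the 4 libraries left out, 0 members were called in each region, beside 0.219%, 0.102% and 0.0732% of all genes.

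A test of whether the change itself differed between regions called 0 of 25 members and 0.0% of all genes in edgeR, with 1 member at an unadjusted p under 0.05 (Hcn3, adjusted p = 0.50) beside 8.51% of all genes. That value rests on the dissociated DG libraries in which Hcn3 was at 0. DESeq2 called 0 members here (0.23% of all genes), and without the 4 libraries edgeR called 0 members (0.0219%).

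Markers of other cells moved with the preparation. The summed level of 7 oligodendrocyte markers was 1302 to 11723 CPM in dissociated libraries and 566 to 3544 CPM in control libraries, and 7 of 7 passed the test as higher. For 7 microglia markers it was 435 to 1546 CPM in dissociated and 200 to 388 CPM in control libraries, with 5 of 7 called higher. The 6 excitatory neuron markers summed to 3793 to 11360 CPM in dissociated and 6168 to 10238 CPM in control libraries, with 0 of 6 called. Their fitted values for dissociated over control tissue were above 0 in 1 of 6 (median -0.47), beside the members' median of -0.45. Those of 5 general neuron markers were above 0 in 1 of 5 (median -0.37) and those of 6 interneuron markers in 2 of 6 (median -0.43). Within CA1 the medians were -0.48 for the members, -0.001 for excitatory neuron, -0.11 for general neuron and 0.40 for interneuron markers. In the same order they were -0.27, -0.30, -0.19 and -0.48 within CA3, and -0.20, -0.13, -0.68 and -1.68 within DG. Every oligodendrocyte marker had counts in every library, 1 microglia marker was at 0 in dissociated DG replicate 3, and 1 excitatory neuron marker was at 0 in dissociated DG replicate 3 and in dissociated CA1 replicate 3. The part of these markers in the channel values was not tested, and in bulk tissue fewer cells of a type and less RNA per cell cannot be told apart.

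Between regions some members passed the test. With preparation in the model, 3 of 25 members were called between CA1 and DG, where 4.06% of all genes were, and 1 of 25 between CA3 and DG, where 1.77% of all genes were. Cacna1i was higher in CA1, and no member was called higher in CA3, beside 1.98% of all genes called higher in CA1 and 0.888% in CA3. Cacna1h was lower in both and Cacna1c in CA1, beside 2.07% of all genes called lower in CA1 and 0.88% in CA3. At an unadjusted p of 0.05, 15 of 25 members passed between CA1 and DG, beside 15.7% of all genes, and 12 between CA3 and DG, beside 12.03%. Between CA1 and CA3 edgeR called 0 members, with 0.115% of all genes called. There 2 members had an unadjusted p under 0.05, beside 5.37% of all genes, and DESeq2 called 1 member, Cacna1i (0.484% of all genes).

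**Figure D3:**
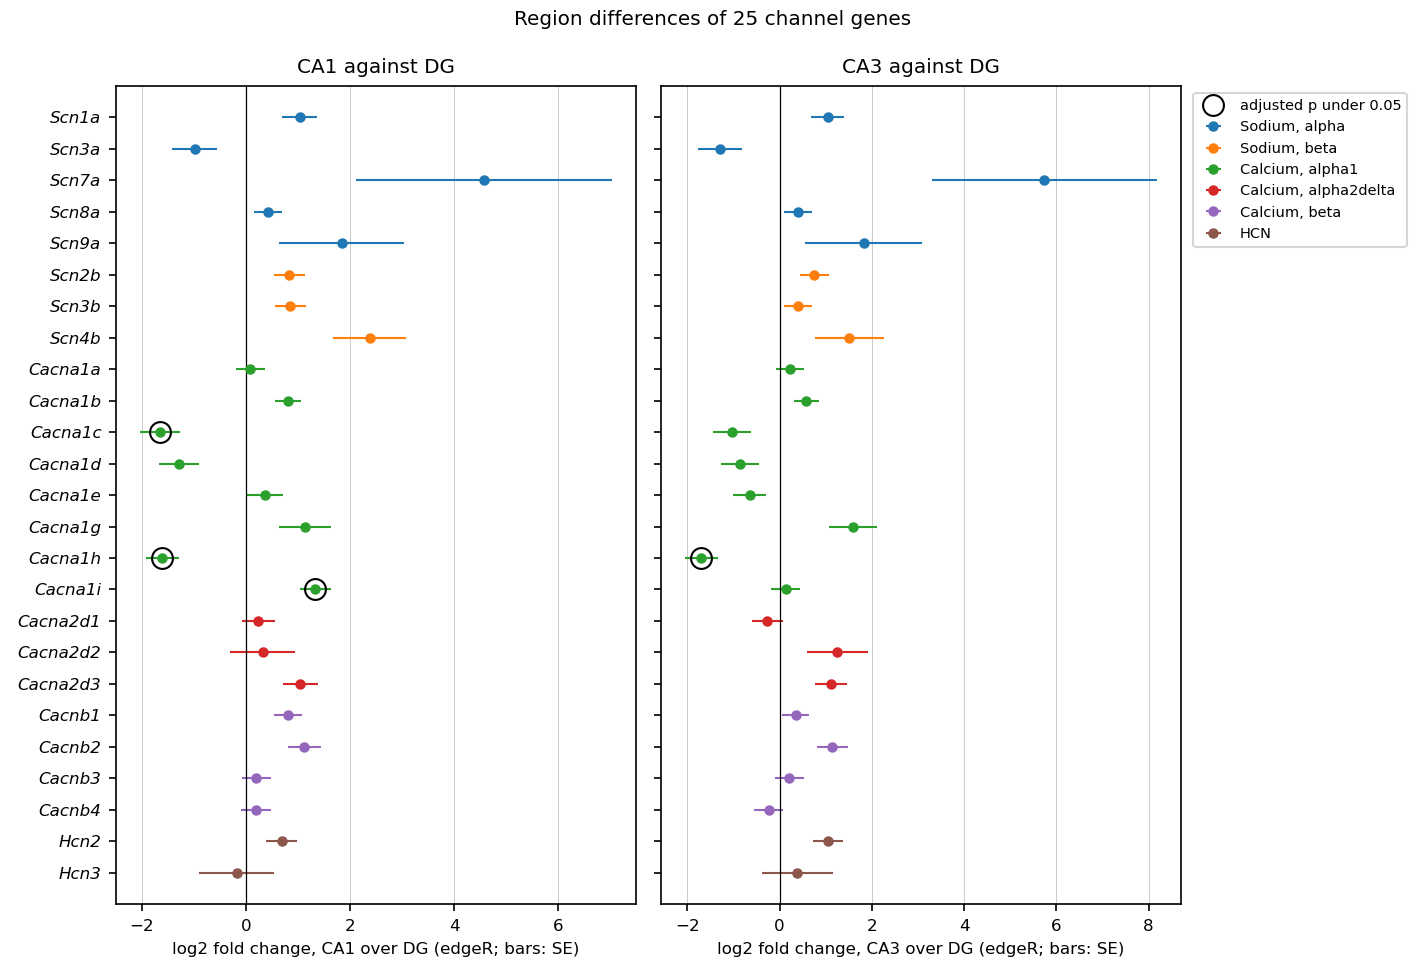
Log2 fold changes of CA1 over DG (left) and CA3 over DG (right) with standard errors for the 25 members tested, from edgeR on 6 CA1, 4 CA3 and 4 DG libraries; circles mark members called at an adjusted p under 0.05. Cacna1h stands at -1.60 and -1.70, and Cacna1i at 1.34 and 0.13; the wide bars of Scn7a rest on 32 counts in all and are not called.

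**Figure D4:**
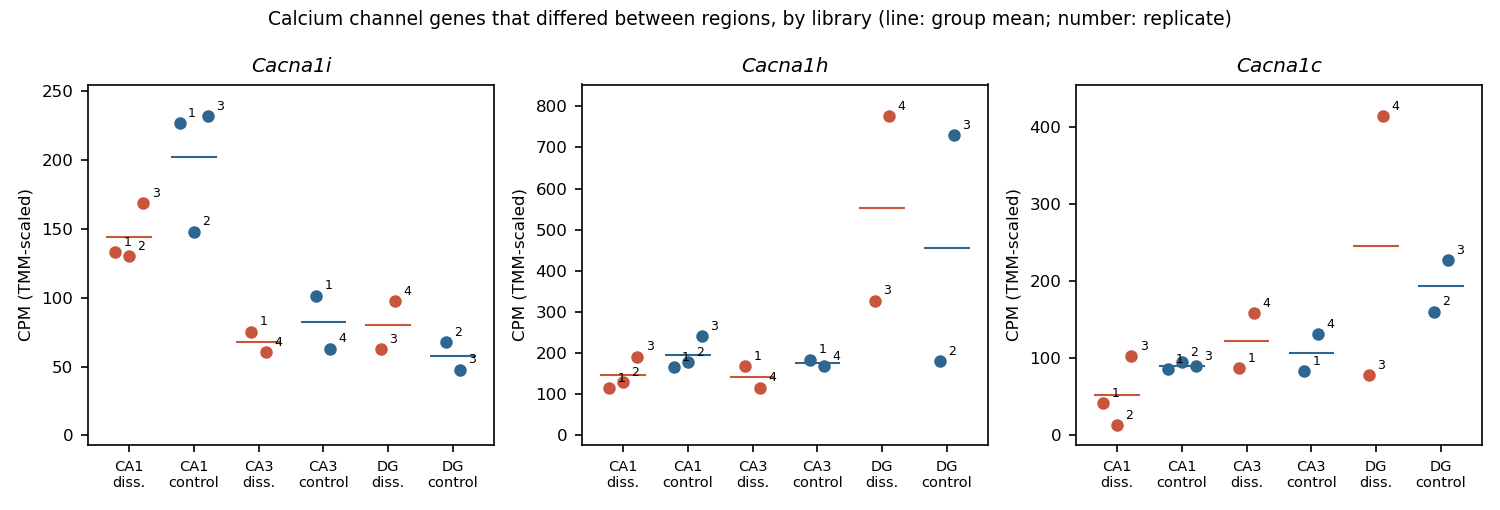
CPM scaled between libraries of 3 calcium channel genes called between regions, one point per library with its replicate number and a line at the group mean, dissociated left of control within each region. Every CA1 library lies above every CA3 and DG library for Cacna1i, while Cacna1h reaches 775 CPM in DG.

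Cacna1h (chr17:25374285-25433783, minus strand, GRCm38) and Cacna1i (chr15:80287238-80398279, plus strand, GRCm38), genes of T-type channels, which open at low voltage and support burst firing, were called in opposite directions between CA1 and DG. Cacna1h had 116, 130 and 191 CPM in dissociated and 166, 179 and 242 CPM in control CA1 libraries, 168 and 116 CPM in dissociated and 185 and 169 CPM in control CA3 libraries, against 328 and 775 CPM in dissociated and 180 and 729 CPM in control DG libraries. All DG libraries except control replicate 2, at 180 CPM, lay above every CA1 and CA3 library. For Cacna1h the log2 fold change was -1.60 ± 0.32 (SE, adjusted p = 0.0044) for CA1 over DG and -1.70 ± 0.36 (SE, adjusted p = 0.015) for CA3 over DG. Without the 4 libraries it was -1.99 ± 0.28 and -2.21 ± 0.37, both called. Without control DG replicate 3 both calls were lost, and the CA3 call was also lost without dissociated CA3 replicate 4 or dissociated DG replicate 4.

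Cacna1i had 133, 130 and 168 CPM in dissociated and 227, 148 and 231 CPM in control CA1 libraries, against 62.4 and 97.5 CPM in dissociated and 67.4 and 47.7 CPM in control DG libraries. In CA3 it had 75.3 and 60.4 CPM in dissociated and 101 and 62.9 CPM in control libraries. Every CA1 library lay above every DG and every CA3 library. For Cacna1i the log2 fold change was 1.34 ± 0.30 (SE, adjusted p = 0.011) for CA1 over DG, 0.13 ± 0.32 (adjusted p = 0.93) for CA3 over DG and 1.21 ± 0.28 (adjusted p = 0.11) for CA1 over CA3. Without the 4 libraries the CA1 over CA3 value was 1.55 ± 0.38 and passed, with an adjusted p of 0.040, as 1 of 25 members beside 1.31% of all genes. The call over DG was lost without control DG replicate 3 (adjusted p = 0.097) and held without the 4 libraries, at 1.43 ± 0.38 (adjusted p = 0.020).

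The third T-type gene, Cacna1g, had log2 fold changes of 1.14 ± 0.50 (adjusted p = 0.26) for CA1 and 1.59 ± 0.53 (adjusted p = 0.15) for CA3 over DG, and 1.34 ± 0.37 (adjusted p = 0.027) and 0.37 ± 0.42 (adjusted p = 0.73) without the 4 libraries. Taken as shares of the summed CPM of the T-type genes, Cacna1h held 38.0% ± 8.09 in CA1 (SD, n = 6) and 44.6% ± 9.84 in CA3 (n = 4), against 78.4% ± 11.4 in DG (n = 4). Cacna1i held 38.3% ± 6.65 in CA1 and 20.8% ± 4.60 in CA3, against 13.7% ± 7.42 in DG. Cacna1g held 23.7% ± 13.0 in CA1 and 34.5% ± 13.4 in CA3, against 7.94% ± 4.93 in DG. The lowest Cacna1g share in CA1, 2.68%, was in the library labelled dissociated CA1 replicate 3, whose CA1 markers were low. Without the 4 libraries the Cacna1h share was 35.2% ± 4.95 in CA1 (SD, n = 5) and 53.0% and 53.1% in the 2 CA3 libraries, against 83.9% ± 3.30 in DG (n = 3), the Cacna1i share was 36.9% in CA1 and 23.6% in CA3, against 10.5% in DG, and the Cacna1g share was 27.9% in CA1 and 23.3% in CA3, against 5.56% in DG. In TPM of all 14 libraries, Cacna1h held 45.7% ± 12.8 in CA1, 51.8% ± 8.63 in CA3 and 72.6% ± 20.9 in DG (SD). The DG range, 49.3% to 90.6%, overlapped those of CA1 (up to 69.6%) and CA3 (up to 58.9%). Cacna1i held 33.6% of TPM in CA1, 18.6% in CA3 and 21.6% in DG. Without transcripts under 1000 bases, Cacna1h held 39.8%, 45.4% and 79.1% of TPM in CA1, CA3 and DG, and Cacna1i 34.45%, 18.0% and 12.5%.

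Cacna1c (chr6:118587240-119196418, minus strand, GRCm38) encodes the main L-type channel of the brain. It had 41.8, 13.7 and 102 CPM in dissociated and 86.3, 94.7 and 90.0 CPM in control CA1 libraries, against 78.0 and 413 CPM in dissociated and 161 and 227 CPM in control DG libraries. In CA3 it had 83.0 to 158 CPM over 4 libraries. CA1 and DG overlapped through dissociated DG replicate 3, where the gene had 5 counts. In dissociated CA1 replicate 2, at 13.7 CPM, 3 counts correspond to 22.2 CPM. The log2 fold change was -1.65 ± 0.38 (SE, adjusted p = 0.013) for CA1 over DG and -1.03 ± 0.42 (adjusted p = 0.28) for CA3 over DG. The CA1 call was lost without control DG replicate 3 (adjusted p = 0.066), dissociated CA1 replicate 1 (adjusted p = 0.063) or dissociated DG replicate 4 (log2 fold change -1.07, adjusted p = 0.14), and held without the 4 libraries, at -1.98 ± 0.41 (adjusted p = 0.0030). Cacna1d, the other L-type gene of brain, had -1.29 ± 0.38 (adjusted p = 0.059) for CA1 over DG.

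Hcn2, whose values by library are given above, had a log2 fold change of 0.69 ± 0.30 (adjusted p = 0.25) for CA1 and 1.05 ± 0.32 (adjusted p = 0.11) for CA3 over DG. Hcn3, a scarce HCN gene, had -0.17 ± 0.72 and 0.39 ± 0.76.

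Over the 25 members tested, the fitted value was above 0 in 20 of 25 for CA1 over DG (median 0.69, all genes -0.04) and in 18 of 25 for CA3 over DG (median 0.40, all genes 0.04), with the same counts under another scaling. When each library was left out the median was 0.51 to 0.89 for CA1 and 0.26 to 0.63 for CA3. After leaving out the 4 libraries, 20 of 25 were above 0 for CA1 (median 0.87, all genes 0.10) and 15 of 25 for CA3 (median 0.26, all genes 0.09). In the sodium channel group 7 of 8 genes were above 0 in both comparisons, with Scn3a, a gene known for its expression in embryonic brain, the exception at -0.98 ± 0.43 and -1.29 ± 0.48 (adjusted p = 0.26 and 0.22). The 7 include Scn7a, at 0 in all 4 DG libraries, and Scn9a, at most 2.93 CPM there. Both passed the filter through CA1 or CA3 libraries alone. Their direction here and in the counts over 25 members was largely set by the filter. The beta subunit gene Scn4b had 2.38 ± 0.70 for CA1 over DG (adjusted p = 0.057), just short of a call. Cacnb2 had 1.12 ± 0.32 (adjusted p = 0.050) for CA1 and 1.14 ± 0.34 (adjusted p = 0.095) for CA3 over DG.

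The number of called members depended on the libraries and the tool. Without the 4 libraries low in their own markers, 9 of 25 members were called between CA1 and DG (6.36% of all genes) and 3 of 25 between CA3 and DG (3.92% of all genes). The added CA1 calls were Cacna1g, Cacna2d3, Cacnb2, Scn2b and Scn4b as higher and Cacna1d as lower, and the added CA3 calls were Cacna2d3 and Hcn2 as higher. DESeq2 called 10 of 25 members between CA1 and DG (7.67% of all genes) and 4 between CA3 and DG (3.83% of all genes). On log2(TPM + 1), limma called 0 members between CA1 and DG (1.26% of all genes) and 0 between CA3 and DG (0.13%). In dissociated libraries only, 0 members were called in either comparison, beside 0.159% of all genes in each. In control libraries only, 0 were called between CA3 and DG (1.07% of all genes), while some were called between CA1 and DG (6.22% of all genes). Without control DG replicate 3, the deepest DG library, 0 members were called in either comparison, with 1.54% and 0.415% of all genes called.

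Members without overlap over both preparations were Cacna1b and Cacna1i for CA1 above DG, 2 of 25 beside 1.87% of all genes, and Cacnb2 and Scn1a for CA3 above DG, 2 of 25 beside 3.74% of all genes. Cacna1i was the 1 member with CA1 above CA3 without overlap, beside 0.375% of all genes, and no member lay below DG without overlap in CA1 (1.59% of all genes) or CA3 (1.93%), or below CA3 in CA1 (1.26%). For the markers of other cells, 7 oligodendrocyte markers summed to 566 to 5396 CPM in CA1 libraries and 3173 to 11723 CPM in CA3 libraries, against 1686 to 8756 CPM in DG libraries. The 7 oligodendrocyte markers gave 2 calls, both lower in CA1 than in DG. The 6 interneuron markers summed to 274 to 554 CPM in CA1 and 497 to 903 CPM in CA3, against 172 to 652 CPM in DG, with 2 of 6 called higher in CA1 and 2 of 6 in CA3. Between 1 and 3 of them were at 0 in each of the 4 DG libraries, 2 in dissociated CA1 replicate 3 and 1 in dissociated CA3 replicate 4. The 6 excitatory neuron markers summed to 6620 to 11286 CPM in CA1 and 7007 to 11360 CPM in CA3, against 3793 to 8570 CPM in DG. Their fitted values were above 0 in 6 of 6 for CA1 over DG (median 0.82, 1 called) and in 5 of 6 for CA3 over DG (median 0.62, 1 called), beside the members' 0.69 and 0.40. The part of these markers in the channel values was not tested.

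Related genes were read from a list of 27, all of which passed the filter. It holds genes of proteins that bind, anchor or regulate these channels, genes of the presynaptic release machinery, 6 genes of the calcium channel gamma family, and the sodium leak channel gene Nalcn with its subunit genes Unc79 and Unc80. None was called in edgeR for dissociated over control tissue, beside 0.773% of all genes. At an unadjusted p under 0.05, 4 of 27 passed, beside 12.4% of all genes. The fitted value was below 0 in 18 of 27 (median -0.18), beside 58.1% of all genes (median -0.11). The smallest p was that of Cacng4, an AMPA receptor auxiliary gene of the calcium channel gamma family (1.20 ± 0.35, adjusted p = 0.12). For CA1 over DG, 2 of 27 were called, beside 4.06% of all genes, Pex5l at 2.37 ± 0.43 (adjusted p = 0.0019) and Cacng8 at 0.98 ± 0.25 (adjusted p = 0.027). For CA3 over DG 1 of 27 was called, beside 1.77% of all genes, Pex5l at 1.94 ± 0.44 (adjusted p = 0.024). Leaving out any 1 of the 14 libraries kept the CA1 call of Pex5l, while its CA3 call was lost without control CA3 replicate 1, dissociated CA3 replicate 1 or control DG replicate 3 (adjusted p = 0.077, 0.090 and 0.16) and the Cacng8 call was lost in 5 of the 14 fits (adjusted p up to 0.13). Those 5 left out a control CA1 library, control DG replicate 3 or dissociated DG replicate 4. In the fit without the 4 libraries Pex5l had 2.61 ± 0.36 for CA1 (adjusted p = 3.57e-05) and 1.29 ± 0.38 for CA3 over DG (adjusted p = 0.059, no longer called), and Cacng8 had 1.11 ± 0.29 for CA1 (adjusted p = 0.021). Between CA1 and CA3 edgeR called 0 of 27, beside 0.115% of all genes, with 2 at an unadjusted p under 0.05, beside 5.37% of all genes. Rem2, which inhibits calcium channels, had the smallest p there (adjusted p = 0.66). Pex5l encodes TRIP8b, an auxiliary subunit that governs the trafficking of HCN channels. Its mean was 252 CPM in dissociated and 614 CPM in control CA1 libraries and 276 CPM in dissociated and 332 CPM in control CA3 libraries, against 105 CPM in dissociated and 71.0 CPM in control DG libraries.

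The deposited transcript values also showed which transcripts carried a member's reads. Among 42 member transcripts with a mean share of at least 10% of their gene, 2 had shares that were lower in dissociated tissue without overlap inside each region, Cacna1d-201 and Scn1a-001 (0.642% of 10595 transcripts of all genes), and 1 had a higher share, Cacna1d-202 (0.189%). These were singled out after their values were seen and have no test. The split of reads between near-identical transcripts is the quantifier's estimate.

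Cacna1d-201, of 9054 bases, held 0%, 0% and 0% of the Cacna1d TPM in dissociated CA1, 44.6% and 0% in dissociated CA3, and 0% and 23.2% in dissociated DG libraries, against 100%, 99.9% and 97.2% in control CA1, 100% and 53.7% in control CA3, and 100% and 44.0% in control DG libraries. The other transcript of the gene, Cacna1d-202 of 8680 bases, held the rest. The gene had 2 and 3 counts in dissociated CA1 replicates 3 and 2 and 3 counts in dissociated DG replicate 3, so those shares rest on almost nothing, while dissociated CA1 replicate 1 had 166 counts at a share of 0%.

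**Figure D5:**
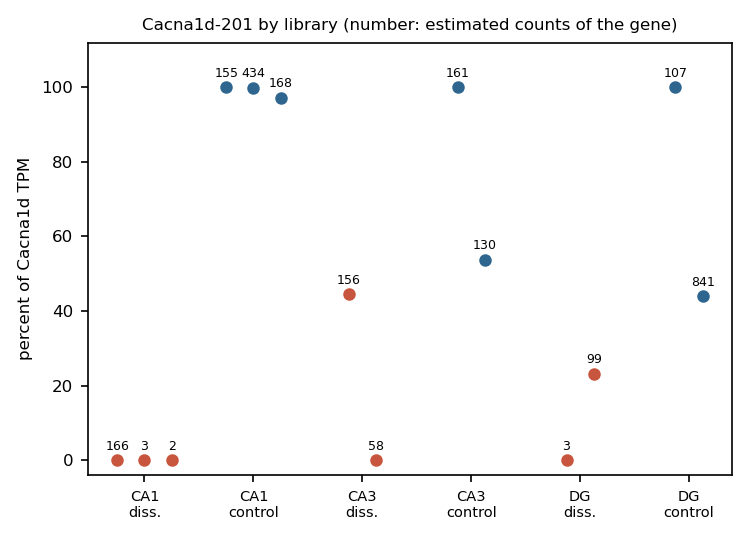
Share of Cacna1d TPM in transcript Cacna1d-201, in percent, one point per library labelled with the gene's estimated counts, dissociated left of control within each region. Dissociated libraries lie below the control libraries of their region; 3 of them rest on 2 or 3 counts.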

How the data were processed

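RNA-seq of hippocampal tissue was deposited as a gene table of estimated counts and as transcript tables with estimated counts, TPM and effective lengths per library; the authors' processing notes name FastQC, cutadapt, kallisto and DESeq2, with no versions. The deposited gene table equals the sum of the deposited transcript estimated counts rounded to whole numbers (within 0.5 for every gene). For the build and annotation behind the tables, the sources used here give no name; of 58716 transcripts, 90.8% have the same version in GENCODE M21, from which coordinates and sequences were taken. Of the 35 members, 3 are not reported here; the other 32 all matched M21 by gene ID.

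The test on counts was that of edgeR 4.0.16 (R 4.3.3): filterByExpr with a minimum count of 10 and a minimum total of 15, TMM scaling, quasi-likelihood F tests, Benjamini-Hochberg adjustment over all 13063 genes, called at 0.05. Region and treatment were additive (10 residual degrees of freedom); treatment within regions and the interaction used 6 group means (8 residual degrees of freedom). A standard error is the fold change divided by the root of F. Alternatives were RLE scaling, no filter, DESeq2 1.42.0, limma 3.58.1 on log2(TPM + 1), a replicate block, either treatment alone, each library left out, the 3 dissociated libraries under 500000 counts left out and, added after seeing the data, the 4 libraries low in their subregion's markers left out. The edgeR procedure was tested on simulated data.

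The deposited TPM compare levels between genes; CPM compare a gene between libraries, and limits for 0 counts use 3 counts over the library total. Depth was 65887 to 6646655 estimated counts. Members called in a main comparison, and in each of the 5 families the member with the smallest treatment p, are given in every library. The exception is Cacna1c in CA3, given as a range. The members and lists were chosen with earlier results of these data known. Replicate numbers were not taken to pair samples, since per the labels' protocols one tissue sample went to each preparation but no label says that a number marks such a pair. No column of per-sample values was left without a sample.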

Additional observations from a re-analysis of the deposited data

How the results depend on the processing

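No called value of a member, nor of the partner genes Pex5l and Cacng8, changed sign under the alternatives run. For dissociated over control tissue, where 0 members were called, 1 was called with no filter on low counts (1.98% of all genes), 1 with DESeq2 and 0 to 2 when each library was left out, the 2 being Cacna1e and Cacna2d1 without dissociated DG replicate 4 (1.83% of all genes). For CA1 over DG, where 3 were called, the count was 5 with RLE scaling (4.13% of all genes), 11 with no filter (5.18%), 10 without the 3 shallow dissociated libraries (5.82%), 9 without the 4 libraries low in their own markers, 10 with DESeq2, 0 with limma on log2(TPM + 1) (1.26%), 5 in control libraries only (6.22%), 0 in dissociated libraries only (0.159%) and 0 to 7 when each library was left out. The 0 arose without control DG replicate 3 (1.54% of all genes) and the 7 without control DG replicate 2 (5.53% of all genes). For CA3 over DG, where 1 was called, the count was 5 with no filter (3.54%), 3 without the shallow libraries (2.66%), 3 without the 4 libraries, 4 with DESeq2, 0 with limma, 0 in control libraries only (1.07%), 0 in dissociated libraries only (0.159%) and 0 to 4 when each library was left out. It was 0 without control DG replicate 3 (0.415% of all genes), dissociated DG replicate 4 (0.884%) or dissociated CA3 replicate 4, and 4 without control DG replicate 2 (4.26%). For CA1 over CA3, where 0 were called, it was 2 with no filter (0.73%), 1 with DESeq2, 1 without the 4 libraries and 0 to 1 when each library was left out. Within CA1, 2 were called with no filter (1.56% of all genes) and 1 with DESeq2 (1.58%). The Hcn2 value for dissociated over control tissue, not called at 0.46, was -0.036 with limma. The causes were not tested, beyond the fewer libraries in those fits.

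With the replicate number within each region as a block, 4 members were called for dissociated over control tissue, beside 2.91% of all genes (Cacna1e, Cacna2d1, Scn3b and Scn8a, all lower), and 4 within CA1 (2.29%). Control DG replicate 2 and dissociated DG replicate 4 stand alone in their blocks and add nothing to the treatment estimate. With the number as a block across regions, 0 members were called for CA3 over DG (0.942%). Over all genes tested, the deviations of same-numbered libraries from their group means correlated at -0.16 to 0.07. With 2 libraries in each CA3 group, both CA3 correlations are the same value by construction. Of the 3 dissociated CA1 libraries 1 correlated best with the control library of its own number. In CA3 the summed CA3 markers did go with the number. They were at 192 CPM (control) and 247 CPM (dissociated) in replicate 1, against 751 and 1080 CPM in replicate 4. The Cacna1h share of T-type expression was 45.7% of TPM and 38.0% of CPM in CA1, and 72.6% of TPM and 78.4% of CPM in DG. CPM is not divided by transcript length. In limma on TPM, which is not rescaled by composition, the median of all genes was -0.64 for dissociated over control tissue beside -0.11 in edgeR, with 7 genes higher and 48 lower beside 95 higher and 6 lower. Depth limited members in the dissociated libraries under 500000 counts, where 3 counts correspond to 9.97 to 45.5 CPM.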
